A study of Mus musculus with 27 samples.

Results

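The Xlr (X-linked lymphocyte regulated) genes are a multicopy family of the mouse X chromosome, and the data hold 10 of them among 24065 genes, taken by symbol as Xlr itself, Xlr3a, Xlr3b, Xlr3c, Xlr4a, Xlr4b, Xlr4c, Xlr5a, Xlr5b and Xlr5c. RNA-Seq was performed on 6 whole C57BL/6J embryos at embryonic day 8.5 (E8.5), 3 wild type (WT) and 3 Dnmt3b-/- littermates from matings of heterozygous parents, with 1 library of ribosomal RNA-depleted total RNA for each embryo. The Dnmt3b-/- allele (3BKO in the labels) lacks exons of the catalytic domain of the DNA methyltransferase DNMT3B, and it was derived from a conditional allele with a Cre deleter driven by the ACTB promoter, so that the deletion is carried by all cells. Reads were counted in RefSeq exons, giving 41489332 to 58470286 counts on genes per embryo, and no methylation data were analysed here.

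XLR proteins share the Cor1 domain with SYCP3, a protein of the axis of meiotic chromosomes, and Xlr transcripts are known from germ cells and lymphoid cells. Xlr3b, Xlr4b and Xlr4c are also known as imprinted genes, with repression of the paternal copy in brain. DNMT3B adds methyl groups to cytosines of CpG dinucleotides in the early embryo, and many genes with germline functions are methylated at their promoters at that time.

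Xlr lies on chromosome X of mm10 (GRCm38) between 53777118 and 53797716 on the minus strand. The other 9 genes lie 19.3 Mb further along in a cluster of 220 kb, from 73074343 (Xlr4a) to 73293863 (Xlr5c), in the order Xlr4a, Xlr3a, Xlr5a, Xlr5b, Xlr3b, Xlr4b, Xlr4c, Xlr3c and Xlr5c. Xlr3b, Xlr4b and Xlr5b are on the plus strand and the others on the minus strand. Each gene has 9 exons in RefSeq, apart from Xlr5c with 6.

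The copies within a subfamily are close to identical. In pairwise alignments of the RefSeq transcripts the identity was 98.5 to 99.1% between Xlr3 copies, 98.7 to 99.1% between Xlr4 copies and 98.7 to 99.3% between Xlr5 copies. The coding sequences of the Xlr3 copies could be compared base by base in 575 positions, in exons of equal length, and 12 of them differed in at least 1 copy. Those of the Xlr4 copies differed in 8 of 648 positions. The following stretches of 75 bases, the length of a read, are those within 1 coding exon where the copies differ at the largest number of positions, and they show how few bases tell one copy from another. They are given 5′ to 3′ on the strand of the gene, from the GRCm38.p6 genome of RefSeq, with the differing positions in capitals.
Xlr3a coding stretch, chrX:73089424-73089498, minus strand: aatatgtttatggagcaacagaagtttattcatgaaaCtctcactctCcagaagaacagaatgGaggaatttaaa
Xlr3b coding stretch, chrX:73199746-73199820, plus strand: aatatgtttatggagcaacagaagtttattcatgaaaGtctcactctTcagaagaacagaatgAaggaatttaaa
Xlr3c coding stretch, chrX:73257660-73257734, minus strand: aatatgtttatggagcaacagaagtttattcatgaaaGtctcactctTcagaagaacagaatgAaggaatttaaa
Xlr4a coding stretch, chrX:73074847-73074921, minus strand: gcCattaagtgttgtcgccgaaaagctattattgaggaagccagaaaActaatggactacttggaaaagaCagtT
Xlr4b coding stretch, chrX:73221876-73221950, plus strand: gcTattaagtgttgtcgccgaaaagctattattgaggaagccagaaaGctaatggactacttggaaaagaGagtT
Xlr4c coding stretch, chrX:73234581-73234655, minus strand: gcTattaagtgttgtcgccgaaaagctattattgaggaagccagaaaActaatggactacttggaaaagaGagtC

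Even in this stretch, chosen for its 3 differing positions, Xlr3b and Xlr3c are the same. For each gene, the exons were cut into all overlapping stretches of 75 bases, and those that occur once on chromosome X were counted on both strands. Xlr had the highest share of such stretches, 64.7%. The share was 31.7 to 38.5% in the Xlr4 copies, 35.2% in Xlr3a and 31.0% in Xlr3c. It was 19.1% in Xlr5a, 5.5% in Xlr5b and 4.9% in Xlr3b, so that few single reads can be assigned to Xlr3b or Xlr5b without their mate. The handling of reads with several alignments is not given in the sources used here. Values of single copies are therefore uncertain in how they divide the reads of a subfamily, and sums over each subfamily are given beside them.

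**Figure D1:**
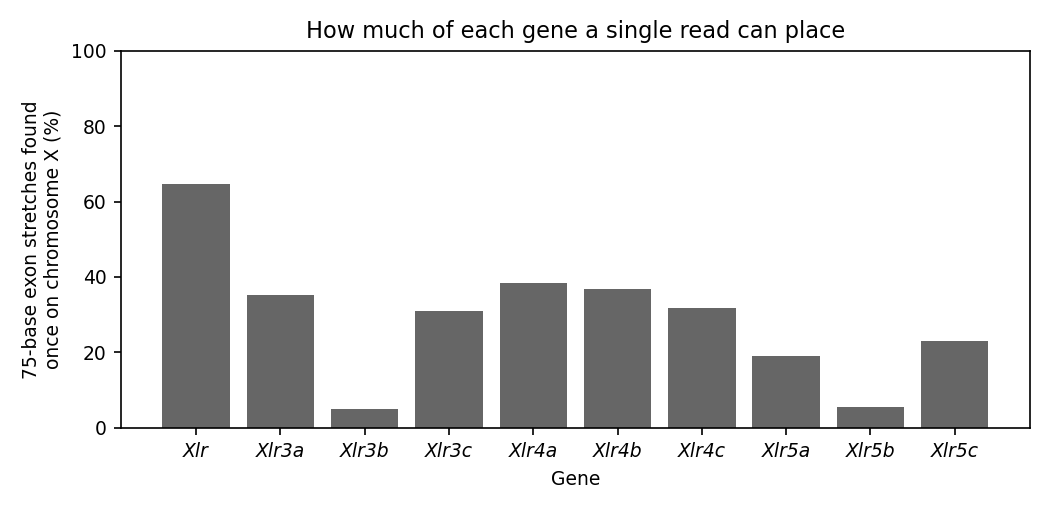
Percent of the 75-base stretches in the exons of each Xlr family gene (x axis) that occur once on chromosome X (y axis, bars from 0). Xlr stands at 64.7%, the Xlr4 copies between 31.7 and 38.5%, and Xlr3b and Xlr5b at 4.9 and 5.5%.

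The promoters were compared in windows of 300 bases from RefSeq, 250 before and 50 after the transcription start, on GRCm38.p6. All 10 genes had a window. Its start site lies 0 to 29 bp from the gene start of the annotation in Xlr, Xlr3a, Xlr3b and the Xlr4 copies and 186 bp inside the gene in Xlr3c. In Xlr5a, Xlr5b and Xlr5c it lies 1015, 1057 and 3348 bp inside the gene, so that these windows do not cover the outermost start and are not at the same place as those of the other subfamilies. The windows of Xlr, Xlr3b, Xlr4b and Xlr5a are given as the examples of each subfamily, 5′ to 3′ on the strand of the gene with CpG dinucleotides in capitals, since CpGs are the substrate of DNMT3B.
Xlr promoter window, chrX:53797657-53797956, minus strand: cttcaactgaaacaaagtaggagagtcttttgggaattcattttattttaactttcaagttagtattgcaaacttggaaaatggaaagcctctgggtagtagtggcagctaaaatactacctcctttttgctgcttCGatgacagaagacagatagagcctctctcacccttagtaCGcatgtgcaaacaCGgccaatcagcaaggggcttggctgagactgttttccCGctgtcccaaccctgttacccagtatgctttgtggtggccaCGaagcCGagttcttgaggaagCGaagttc
Xlr3b promoter window, chrX:73191929-73192228, plus strand: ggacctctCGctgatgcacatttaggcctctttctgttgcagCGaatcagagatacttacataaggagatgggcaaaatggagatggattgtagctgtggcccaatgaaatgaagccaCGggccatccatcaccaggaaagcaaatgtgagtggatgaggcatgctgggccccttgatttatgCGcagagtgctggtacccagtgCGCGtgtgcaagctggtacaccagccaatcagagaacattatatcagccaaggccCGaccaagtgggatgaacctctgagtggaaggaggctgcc
Xlr4b promoter window, chrX:73214083-73214382, plus strand: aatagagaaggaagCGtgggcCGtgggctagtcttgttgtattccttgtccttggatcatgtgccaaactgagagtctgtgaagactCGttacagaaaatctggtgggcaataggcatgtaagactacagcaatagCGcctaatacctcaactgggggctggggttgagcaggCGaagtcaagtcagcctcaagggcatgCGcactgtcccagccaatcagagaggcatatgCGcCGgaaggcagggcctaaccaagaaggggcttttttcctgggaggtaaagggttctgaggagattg
Xlr5a promoter window, chrX:73117653-73117952, minus strand: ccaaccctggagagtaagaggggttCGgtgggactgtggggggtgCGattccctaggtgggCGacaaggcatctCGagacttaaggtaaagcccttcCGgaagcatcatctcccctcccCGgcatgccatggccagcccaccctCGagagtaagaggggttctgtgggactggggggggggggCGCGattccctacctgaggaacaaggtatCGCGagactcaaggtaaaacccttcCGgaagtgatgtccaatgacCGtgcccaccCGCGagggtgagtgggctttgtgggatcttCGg

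The Xlr, Xlr3 and Xlr4 windows held 5 to 8 CpGs, near the median of 7 over all 32851 promoter windows of the same length. The windows of Xlr5a and Xlr5b held 16 CpGs each, and the window of Xlr5c held 1, at the inner positions given above. Between copies, the windows were identical at 93.7 to 98.1% of aligned bases in Xlr3 and at 98.1 to 98.9% in Xlr4. Those of Xlr5a and Xlr5b did not differ in the 255 bases that could be aligned. The E-box CACGTG was found in none of the 10 windows, against 7.2% of all windows, and the E2F core TCCCGC, searched on both strands, was found once, in the window of Xlr, against 20% of all windows. The sequence CCAATCAG, which holds the letters of a CCAAT box and was searched on both strands after the windows had been read, was present in the windows of Xlr, of the 3 Xlr3 copies and of the 3 Xlr4 copies. It was absent from the Xlr5 windows and present in 4.1% of all windows. The matches in Xlr3b and Xlr3c are at different places of the shared sequence, and Xlr3a holds both. The longest run common to the windows of Xlr and Xlr3a, which are 19.3 Mb apart, was agtacgcatgtgcaa, with 15 bases. Searched as an exact match on both strands, it was found in 3 of all 32851 windows. These were the windows of Xlr and Xlr3a, from which it was taken, and of 3830403N18Rik, a gene that RefSeq also lists as Xlrl. The copies derive from one another, so that their windows are not independent, and a match describes letters, not binding.

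To check the labels, the targeted gene was examined first. The normalized count of Dnmt3b, the raw count scaled to a common library size with the TMM method, was 7263, 13956 and 6280 in WT embryos 1, 2 and 3 and 4063, 4541 and 4740 in Dnmt3b-/- embryos 1, 2 and 3. All Dnmt3b-/- embryos were below all WT embryos, with a log2 fold change of -1.04 ± 0.27 (SE; adjusted p = 0.0169, edgeR). Reads from exons outside the deletion still count for the gene, so that the check is partial.

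Genes were called with the quasi-likelihood test of edgeR at a p-value adjusted over all tested genes (Benjamini-Hochberg) below 0.05 and a fold change above 2. Of the 10 Xlr family genes, 7 were called higher in Dnmt3b-/- embryos, namely Xlr and all copies of Xlr3 and Xlr4, and 0 were called lower. Over all 15114 tested genes, 2.12% were called higher and 3.78% lower, and among the 576 tested X-linked genes outside the family 4.69% were called higher. Xlr5a and Xlr5b were tested and not called, and Xlr5c had no counts. The 9 tested members had a median log2 fold change of 2.42, against -0.03 over all tested genes and 0.18 over the X-linked genes outside the family. Xlr3c and Xlr4c passed the filter of a mean of 10 counts only through the Dnmt3b-/- embryos, with raw WT means of 7.33 and 9.67 counts, so that the number of members tested is not independent of the result. In 8 of the 10 genes all 3 Dnmt3b-/- embryos were above all 3 WT embryos, an arrangement found in 25.3% of the tested genes. The embryos are single animals, and p-values measure the spread between these 6. In whole embryos, a larger number of expressing cells and more RNA per cell cannot be told apart.

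**Figure D2:**
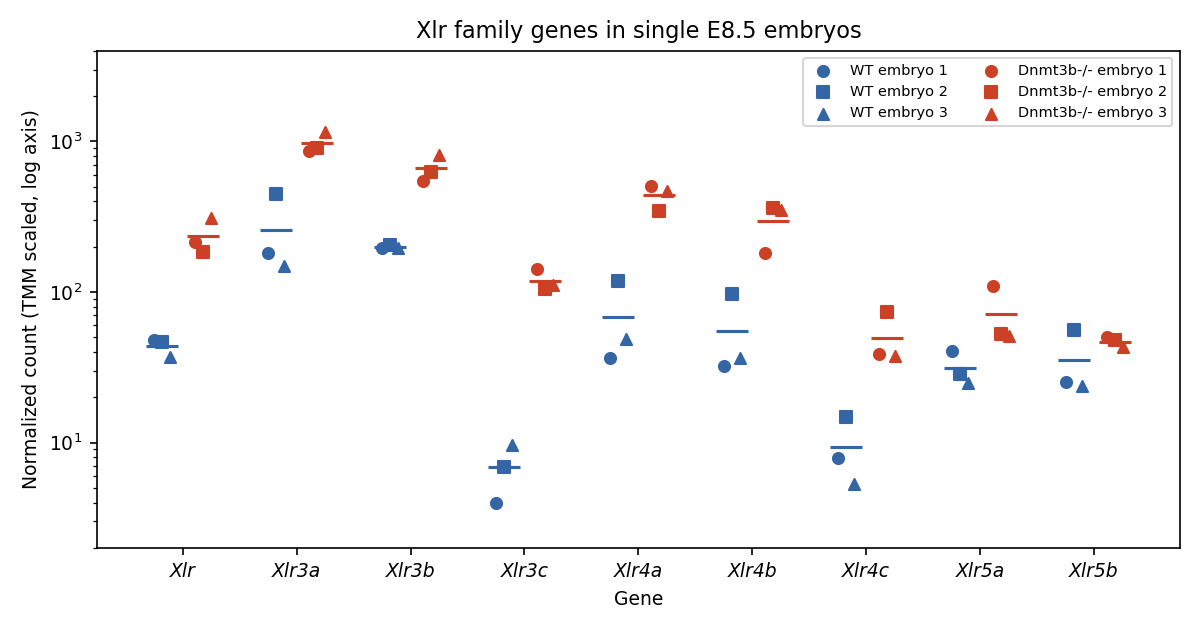
Normalized count (TMM scaled, log axis) of each detected Xlr family gene in the 3 WT embryos (blue) and the 3 Dnmt3b-/- embryos (red), with a marker shape for each embryo number and a bar at the group mean. The groups are apart for every gene shown other than Xlr5b. WT embryo 2 (blue square) is the highest WT embryo for Xlr3a, the Xlr4 copies and Xlr5b and, by a small margin, for Xlr3b.

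Xlr, the founding gene of the family, is the member with the highest share of unique exon stretches. Some of its other stretches occur up to 30 times on chromosome X. The normalized count of Xlr was 48.2, 46.9 and 37.0 in WT embryos 1, 2 and 3. In Dnmt3b-/- embryos 1, 2 and 3 it was 215, 183 and 311. The mean rose from 44.0 ± 6.10 to 236 ± 66.6 (SD, n = 3 each), or 5.36-fold, and the lowest Dnmt3b-/- embryo stood well above the highest WT embryo. The log2 fold change was 2.42 ± 0.29 (SE; adjusted p = 0.000876, edgeR), the 70th largest increase of all tested genes.

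Xlr3a and Xlr3b were the most abundant genes of the family in both genotypes, and the third Xlr3 copy was the lowest detected in WT embryos. Xlr3a had normalized counts of 182, 447 and 148 in WT embryos 1, 2 and 3 and of 864, 908 and 1149 in Dnmt3b-/- embryos 1, 2 and 3. The WT embryos were spread over a 3-fold range, with embryo 2 highest, and still lay below every Dnmt3b-/- embryo. The mean rose from 259 ± 164 to 974 ± 153 (SD, n = 3), with a log2 fold change of 1.92 ± 0.38 (SE; adjusted p = 0.0059). Without WT embryo 2 the log2 fold change was 2.56 (adjusted p = 0.000329).

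Xlr3b, an imprinted gene in brain, had 195, 204 and 196 normalized counts in WT embryos 1, 2 and 3, the closest agreement among the WT embryos in the family. In Dnmt3b-/- embryos 1, 2 and 3 it had 543, 630 and 818. Its mean rose from 198 ± 4.79 to 664 ± 140 (SD, n = 3), a 3.35-fold change, and the log2 fold change was 1.74 ± 0.18 (SE; adjusted p = 0.000616), the smallest among the called members. Xlr3b is also the gene with the lowest share of unique exon stretches.

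Xlr3c was close to the limit of detection in WT embryos, where it had 5, 6 and 11 raw counts. Its normalized count was 3.95, 6.87 and 9.70 in WT embryos 1, 2 and 3. It was 143, 104 and 112 in Dnmt3b-/- embryos 1, 2 and 3. For comparison, 3 counts, taken as the floor in each library, equal 2.37 to 3.49 normalized counts. The mean rose from 6.84 ± 2.88 to 119 ± 20.7 (SD, n = 3), or 17.5-fold, with a log2 fold change of 4.11 ± 0.42 (SE; adjusted p = 0.000607). It had the largest fold change of the family and ranked 38th of all tested genes.

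Xlr4a had 36.3, 119 and 48.5 normalized counts in WT embryos 1, 2 and 3 and 509, 347 and 471 in Dnmt3b-/- embryos 1, 2 and 3. Its mean rose from 68.0 ± 44.6 to 442 ± 85.1 (SD, n = 3), or 6.51-fold, with a log2 fold change of 2.72 ± 0.42 (SE; adjusted p = 0.00217). WT embryo 2 was again the highest of its group and lay below every Dnmt3b-/- embryo, and without it the log2 fold change was 3.38.

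Xlr4b, an imprinted gene in brain, had 32.4, 97.3 and 36.2 normalized counts in WT embryos 1, 2 and 3 and 182, 359 and 349 in Dnmt3b-/- embryos 1, 2 and 3. The mean rose from 55.3 ± 36.4 to 297 ± 99.7 (SD, n = 3), or 5.37-fold, with a log2 fold change of 2.44 ± 0.47 (SE; adjusted p = 0.0052). Dnmt3b-/- embryo 1 was the lowest of its group, and the groups did not overlap. Without WT embryo 2 the log2 fold change was 3.11.

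Xlr4c, the third gene with imprinted expression in brain, was the lowest of the subfamily. It had 7.90, 14.9 and 5.29 normalized counts in WT embryos 1, 2 and 3 and 38.9, 73.3 and 37.3 in Dnmt3b-/- embryos 1, 2 and 3. The mean rose from 9.36 ± 4.96 to 49.8 ± 20.3 (SD, n = 3), with a log2 fold change of 2.42 ± 0.55 (SE; adjusted p = 0.0103), the weakest call of the 7. With limma on log2(CPM + 1) its log2 fold change was 0.75 (adjusted p = 0.01), under the fold threshold, where the pseudocount of 1 CPM is large against a gene of this level.

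The Xlr5 copies gave another picture. Xlr5a had 40.3, 28.6 and 24.7 normalized counts in WT embryos 1, 2 and 3 and 110, 52.3 and 50.8 in Dnmt3b-/- embryos 1, 2 and 3. The groups did not overlap, but Dnmt3b-/- embryo 1 lay apart from the other two. With means of 31.2 ± 8.10 and 71.0 ± 33.6 (SD, n = 3) and a log2 fold change of 1.18 ± 0.43 (SE), the gene passed the fold threshold and missed the threshold on the adjusted p (0.0635, edgeR). It was called by DESeq2 (adjusted p = 0.0458) and with a filter at a mean of 50 counts (adjusted p = 0.0469), in 2 of 17 alternatives in all. Without Dnmt3b-/- embryo 1 its log2 fold change was 0.73.

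Xlr5b had 25.3, 56.1 and 23.8 normalized counts in WT embryos 1, 2 and 3 and 49.9, 47.7 and 42.9 in Dnmt3b-/- embryos 1, 2 and 3. WT embryo 2 was the highest of all 6 embryos, so that the groups overlapped. The means were 35.1 ± 18.2 and 46.9 ± 3.58 (SD, n = 3), with a log2 fold change of 0.43 ± 0.44 (SE; adjusted p = 0.481). Xlr5c had 0 counts in all 6 embryos, and 3 counts equal 2.37 to 3.49 normalized counts at these depths. This limit holds for reads that were counted for Xlr5c, since reads shared with Xlr5a and Xlr5b may have been given to those genes or dropped, which was not tested. Its exons in RefSeq measure 540 bases, all of them coding, and 32 of 139 stretches of 75 bases in them were unique on chromosome X.

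**Figure D3:**
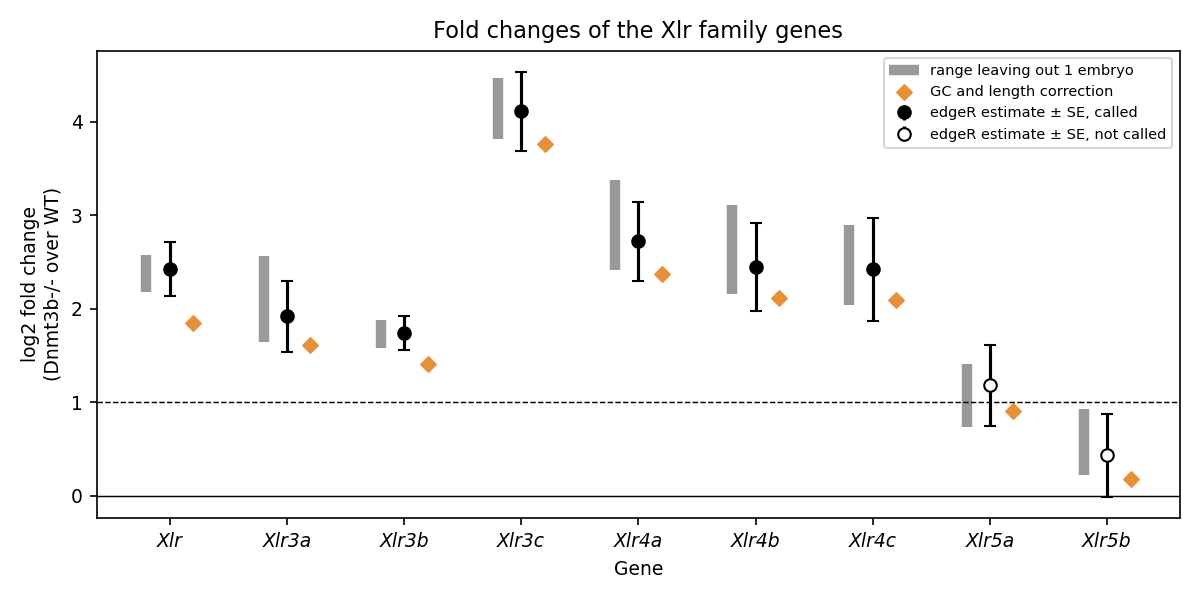
Fold change between Dnmt3b-/- and WT embryos on the log2 scale (y axis) for each tested Xlr family gene (x axis), as edgeR estimate ± SE (filled where called), with the range over fits that leave out 1 embryo (grey bar) and the value after correction for GC content and exon length (diamond). The dashed line marks a fold change of 2, and Xlr, the Xlr3 copies and the Xlr4 copies lie above it under each of these settings.

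Summed over the copies, which takes out the division of reads within a subfamily, the 3 subfamilies moved by unequal amounts. The Xlr3 sum was 381, 658 and 354 normalized counts in WT embryos 1, 2 and 3 and 1550, 1642 and 2078 in Dnmt3b-/- embryos 1, 2 and 3, or 3.78-fold higher in the mean. The Xlr4 sum was 76.6, 231 and 90.0 against 730, 779 and 857, or 5.95-fold higher. The Xlr5 sum was 65.5, 84.7 and 48.5 against 160, 100 and 93.8, or 1.78-fold higher. All 3 sums were higher in every Dnmt3b-/- embryo than in any WT embryo. No test was run on the sums or between the subfamilies. Some exon stretches occur up to 7 times on chromosome X in Xlr3 and Xlr4 and up to 6 times in Xlr5. Reads that were dropped, or given to places outside the subfamily, are not recovered by a sum.

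The share of each copy in its subfamily was compared between genotypes by an exact permutation test over embryos (two-sided), in which 3 against 3 cannot give a p below 0.1. Xlr3c made up 1.04, 1.04 and 2.74% of the Xlr3 sum in WT embryos 1, 2 and 3 and 9.21, 6.30 and 5.38% in Dnmt3b-/- embryos 1, 2 and 3. It was the single copy of the 8 compared whose shares did not overlap between genotypes (p = 0.1, exact, and 0.8 after Benjamini-Hochberg adjustment over 8 shares). Xlr3a made up 41.9 to 68.0% in WT embryos and 55.3 to 55.7% in Dnmt3b-/- embryos (p = 0.7, exact). Xlr3b made up 31.0 to 55.4% and 35.1 to 39.3% (p = 0.4, exact). The shares of the Xlr4 copies overlapped as well, with Xlr4a at 47.4 to 53.9% in WT and 44.5 to 69.8% in Dnmt3b-/- embryos (p = 0.6, exact). With 3 embryos in each group these tests could not have reached 0.05.

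**Figure D4:**
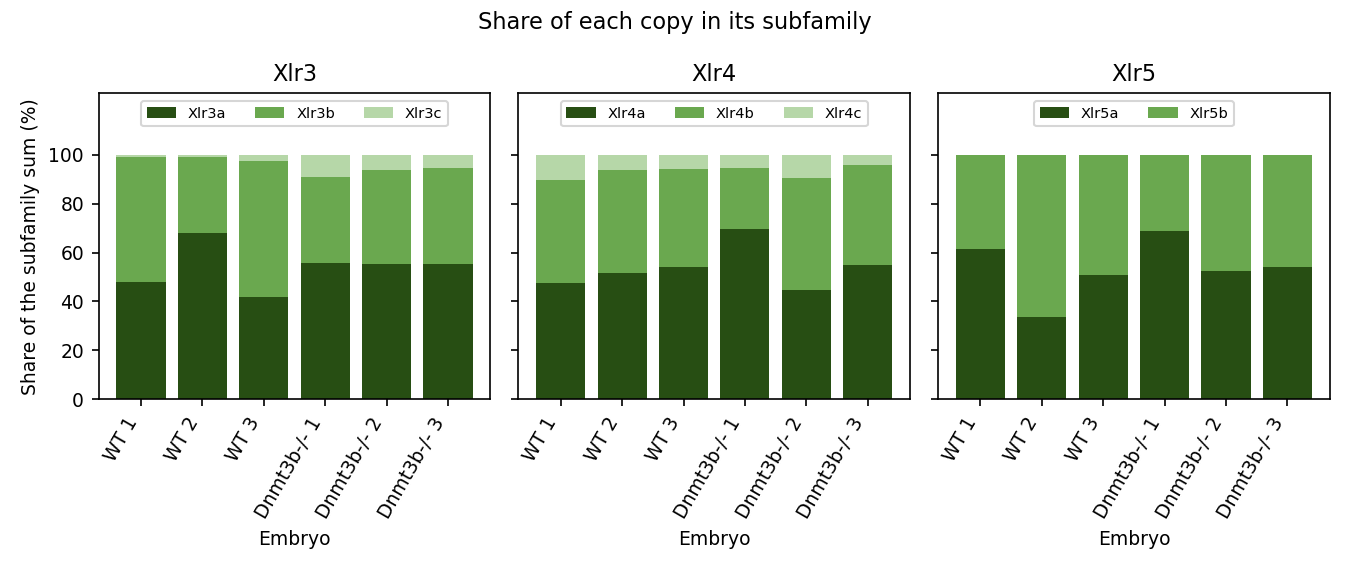
Share of each copy in the normalized count of its subfamily (y axis, percent) in each of the 6 embryos (x axis), as stacked bars for Xlr3, Xlr4 and Xlr5. The lightest segment in the Xlr3 panel is Xlr3c, which takes 1.04 to 2.74% in WT embryos and 5.38 to 9.21% in Dnmt3b-/- embryos.

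Levels between genes were compared per exon length, as FPKM (counts scaled to exon length and to the total of counts on genes). The full exon length was used, whatever its share of unique stretches, so that the order may depend on how shared reads were assigned. In WT embryos the order of the mean levels was Xlr3a (3.35 ± 2.07 FPKM, SD), Xlr3b (2.62 ± 0.03), Xlr4a (1.21 ± 0.78), Xlr4b (0.89 ± 0.57), Xlr5b (0.66 ± 0.33), Xlr5a (0.41 ± 0.11), Xlr (0.40 ± 0.06), Xlr4c (0.16 ± 0.08) and Xlr3c (0.09 ± 0.04). The ranges of neighbours in this order overlapped in the WT embryos, apart from Xlr3b over Xlr4a and Xlr over Xlr4c. In Dnmt3b-/- embryos Xlr3a (12 ± 1.52 FPKM), Xlr3b (8.29 ± 1.49), Xlr4a (7.54 ± 1.54) and Xlr4b (4.53 ± 1.44) led in the same order. They were followed by Xlr (2.03 ± 0.52), Xlr3c (1.53 ± 0.31), Xlr5a (0.88 ± 0.45), Xlr5b (0.84 ± 0.09) and Xlr4c (0.83 ± 0.34). Here Xlr3a over Xlr3b and Xlr4b over Xlr were apart, as was Xlr4a over Xlr4b, while Xlr3b and Xlr4a overlapped. Xlr3c, the lowest detected copy in WT embryos, thus stood above the Xlr5 copies and Xlr4c in the mean level of Dnmt3b-/- embryos.

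The sex of the embryos is not in the labels and was not balanced. Of 5 tested Y-linked genes, led by Ddx3y and Uty, Zfy1 was called higher by edgeR (log2 fold change 5.72, adjusted p = 0.0273), and DESeq2 called 0. Zfy1 had 1.14 normalized counts in WT embryo 2, 28 and 40.7 in Dnmt3b-/- embryos 1 and 3 and none in the others. Its call was lost without WT embryo 1 or 3 (adjusted p = 0.0941 and 0.0786, edgeR). Of 8 genes of X inactivation or escape from it, led by Ddx3x and Eif2s3x, 0 were called (2 had an unadjusted p below 0.05, DESeq2 called 0), with a median of 0.19. Of 3 other X-linked genes with imprinted expression, Rhox5 and Tsix were tested and 0 were called (0 had an unadjusted p below 0.05, DESeq2 called 0). Reads of the Y-linked genes Ddx3y, Eif2s3y, Kdm5d and Uty were abundant in WT embryo 2 and Dnmt3b-/- embryos 1 and 3, and Xist, the RNA of the inactive X chromosome, was abundant in WT embryos 1 and 3 and Dnmt3b-/- embryo 2. Within each sex, Xlr was 5.60-fold higher in the Dnmt3b-/- embryos with Y-linked reads and 4.29-fold higher in the one with Xist. Xlr3b was 3.34-fold and 3.23-fold higher, and Xlr3c 18.5-fold and 15.2-fold. For these genes the size of the change was similar in both sexes.

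For the other called members the change was larger among embryos with Xist. Xlr3a was 2.25-fold higher in Dnmt3b-/- embryos with Y-linked reads and 5.5-fold higher with Xist. Xlr4a was 4.12-fold and 8.17-fold higher, and Xlr4c 2.56-fold and 11.1-fold. Xlr4b was 2.73-fold higher with Y-linked reads, and with Xist it had 359 normalized counts in the Dnmt3b-/- embryo and a mean of 34.3 in the WT embryos. Xlr5a was 2.81-fold and 1.61-fold higher, while Xlr5b stood at 0.83 of WT with Y-linked reads and was 1.94-fold higher with Xist. Each sex has 1 embryo in one genotype, and no test of these differences was made. With the log2 level of Xist as a covariate in edgeR, the same 7 genes were called, with log2 fold changes of 1.71 (Xlr3b) to 4.05 (Xlr3c).

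WT embryo 2 stood apart in more than its sex. It had 2.71 times the mean Xlr3a count of the other WT embryos, 2.81 times that of Xlr4a, 2.84 times that of Xlr4b, 2.26 times that of Xlr4c and 2.28 times that of Xlr5b. Its levels of Xlr, Xlr3b, Xlr3c and Xlr5a were 0.88 to 1.10 times those of the other WT embryos. The same embryo had the highest summed level of 9 yolk sac endoderm markers (184540 normalized counts, against 21606 in the lowest WT embryo and 12026 to 43367 in Dnmt3b-/- embryos). It also had the highest Pou5f1 (837 against 71.1 and 68.8 in the other WT embryos), the highest Rhox5, an X-linked gene with imprinted expression (3583 against 928 and 567), and the lowest Hbb-y, an embryonic globin (450 against 11514 and 15569). The part of sex, of embryo stage and of tissue makeup in the high Xlr3a, Xlr4 and Xlr5b levels of this embryo cannot be told apart.

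Among markers of tissues that could contribute Xlr transcripts, lymphoid and blood cell genes were near 0, with the 10 genes, led by Cd79b and Cd79a, summing to 3.43 to 31.8 normalized counts in WT and 12.4 to 37.2 in Dnmt3b-/- embryos and with Cd3e, Cd3g, Cd4 and Il7r at 0 counts in all embryos. Of 9 trophoblast and decidua markers, Tpbpa, Prl3d1, Prl2c2 and Prl8a2 were at 0 counts in all 6 embryos, and 4 were tested. Of these 0 were called (0 had an unadjusted p below 0.05, DESeq2 called 0), with a median log2 fold change of 0.30 and the 9 genes summing to 1191 to 2016 normalized counts in WT and 1589 to 2060 in Dnmt3b-/- embryos. The most abundant, Des and Cryab, which muscle and other embryonic cells also express, had log2 fold changes of -0.18 and 0.40, and Ascl2, a trophoblast regulator, had 20.9 ± 11.2 and 53.5 ± 32.4 normalized counts (SD, n = 3, log2 fold change 1.36, adjusted p = 0.118). Of 9 primordial germ cell markers, 7 were tested and 0 called by edgeR (3 had an unadjusted p below 0.05, and DESeq2 called 1). Their median log2 fold change was 0.22, with the 9 genes summing to 2890 to 3804 normalized counts in WT and 2966 to 4100 in Dnmt3b-/- embryos. The 2 most abundant, Kit and Prdm1, had log2 fold changes of 0.03 and -0.17. Dppa3, a germ cell and early embryo gene, had 7.11, 22.9 and 16.8 normalized counts in WT embryos 1, 2 and 3 and 34.0, 20.9 and 172 in Dnmt3b-/- embryos 1, 2 and 3 (log2 fold change 2.29, adjusted p = 0.0637 by edgeR and 0.0137 by DESeq2). The groups overlapped, and without Dnmt3b-/- embryo 3 the log2 fold change was 0.86. Ifitm3 had 333 to 359 normalized counts in WT and 570 to 814 in Dnmt3b-/- embryos, below the fold threshold (0.96 on the log2 scale, adjusted p = 0.00284), and Pou5f1 stood at -2.64 (adjusted p = 0.0739) and at -0.44 without WT embryo 2. The part of these cells in the Xlr levels was not tested.

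Of the 9 yolk sac endoderm markers, led by Apob and Cubn, all were tested and Amn was called lower (-2.59 ± 0.84 SE on the log2 scale, adjusted p = 0.0429), with a median of -1.08 (3 had an unadjusted p below 0.05, and DESeq2 called 2). Amn overlapped between the groups and lost its call without WT embryo 2 (-1.31, adjusted p = 0.127), and it also lost it without WT embryo 1 or Dnmt3b-/- embryo 2 or 3 (adjusted p = 0.0563, 0.143 and 0.136). Of 11 markers of the embryo proper, led by Sox2 and T, 0 were called (4 had an unadjusted p below 0.05, DESeq2 called 0), with a median of 0.16. Of 5 primitive erythroid markers, led by Hbb-bh1 and Hbb-y, 0 were called (0 had an unadjusted p below 0.05, DESeq2 called 0).

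The relatives of the family with a Cor1 domain were low. Sycp3 had 5.29 to 33.2 normalized counts in WT and 26.0 to 64 in Dnmt3b-/- embryos (log2 fold change 1.36 ± 0.73 SE, adjusted p = 0.181). Slxl1 and Sly had 0 counts in all embryos, and Slx had 1 count in all. Among these relatives Sycp3 alone was tested. Of 14 genes for partners of SYCP3 on the meiotic chromosome axis and in the synaptonemal complex, 12 were tested. Of these, 8 were called higher, against 2.12% of all tested genes, with a median log2 fold change of 1.85. Sycp1, Sycp2, Tex12 and Hormad1 passed the filter only through the Dnmt3b-/- embryos, with raw WT means of 4, 9.33, 0.667 and 1.33 counts. The number of partners tested and called is therefore not independent of the result. Sycp1, a transverse filament protein, had 1.58 to 5.72 normalized counts in WT and 691 to 1010 in Dnmt3b-/- embryos, and Hormad1, a protein of the unsynapsed axis, had 0 to 1.76 and 406 to 557. Tex12, Sycp2, Syce1, Smc1b, Hormad2 and Stag3 were called as well, with log2 fold changes of 1.26 (Stag3) to 6.93 (Tex12). Syce2 (0.67), Smc3 (0.80) and Smc1a (0.71) had adjusted p-values of 0.00502, 0.00169 and 0.00158 and did not pass the fold threshold. Rec8, a meiotic cohesin gene, had 156 to 216 normalized counts in WT and 139 to 199 in Dnmt3b-/- embryos. Its log2 fold change was -0.07 (adjusted p = 0.85, edgeR). Syce3 and Rad21l did not reach the filter. Meiotic genes were studied in these same embryos before, so that this list is no independent evidence of a direction.

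The genes around the family were examined to see whether the change extended to them. Within 500 kb of the cluster, 20 of 30 other genes were tested and 0 were called by edgeR or DESeq2 (4 had an unadjusted p below 0.05). Their log2 fold changes ranged from -0.72 to 0.75, with a median of -0.12. F8a, which lies inside the cluster between Xlr4b and Xlr4c, had 138, 146 and 130 normalized counts in WT embryos 1, 2 and 3 and 121, 157 and 90.4 in Dnmt3b-/- embryos 1, 2 and 3 (log2 fold change -0.17 ± 0.26 SE, adjusted p = 0.648). The groups overlapped for this gene, while Xlr4b and Xlr4c on either side rose. Cetn2, Nsdhl and Idh3g had an adjusted p below 0.05 at log2 fold changes of 0.75, 0.67 and 0.65.

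Around Xlr, 7 of 12 genes within 500 kb were tested and 0 were called by edgeR or DESeq2 (2 had an unadjusted p below 0.05), with log2 fold changes from -0.65 to 0.64. These 2 were Cxx1b (-0.60 ± 0.19 SE on the log2 scale, adjusted p = 0.035) and Cxx1c (-0.65 ± 0.23, adjusted p = 0.0594), both lower in the mean of the Dnmt3b-/- embryos, opposite to Xlr. The nearest, Zfp36l3, lies 724 bp from Xlr and had 7.90, 38.9 and 7.94 normalized counts in WT embryos 1, 2 and 3 and 17.0, 14.0 and 22.6 in Dnmt3b-/- embryos 1, 2 and 3 (log2 fold change 0.00 ± 0.67 SE). Its reads were few and spread in WT embryos, and with this SE an unchanged level cannot be told from a change past the fold threshold.

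**Figure D5:**
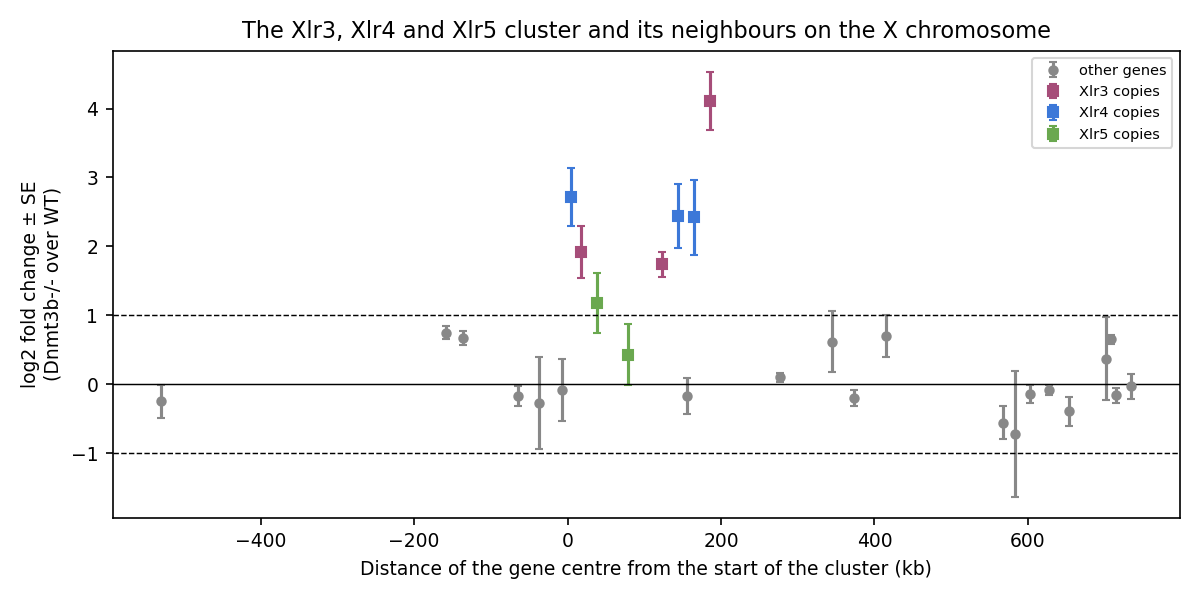
Fold change (log2 ± SE, Dnmt3b-/- against WT, y axis) plotted against the distance of each gene's centre from the start of the Xlr cluster in kb (x axis), for the tested Xlr copies (squares, coloured by subfamily) and the other tested genes within 500 kb (grey). The Xlr3 and Xlr4 copies lie between 1.74 and 4.11 and every grey gene lies between the dashed lines at a fold change of 2.

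Over the 6 embryos, the genes outside the family whose log2(normalized count + 1) followed the Xlr3 sum most closely were Fermt2, Cab39, Mrpl1, Arcn1 and Tomm34, each with a log2 fold change of 0.33 to 0.70. For the Xlr4 sum they were Zfp458, Smarca1, Naa11, Slc35a3 and Twf1. The likeness was measured by the correlation of levels over the 6 embryos and is a description, since the 6 points form 2 groups by genotype. Of these 10 genes, Naa11, an autosomal N-terminal acetyltransferase gene, was the one called, with 0, 5.72 and 0 normalized counts in WT embryos 1, 2 and 3 and 83.9, 73.3 and 59.9 in Dnmt3b-/- embryos 1, 2 and 3. Its highest WT embryo was embryo 2, with 5 raw counts. The Xlr4 sum is also highest there among WT embryos, and Naa11 was picked for its likeness to that sum.

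Base composition was taken into account in a further fit. After a correction for exonic GC content and length, fitted in each library, 304 genes were called higher, which is 2.01% of all tested genes, and the same 7 members were among them, with log2 fold changes of 1.41 (Xlr3b) to 3.76 (Xlr3c). The log2 fold change of Xlr was 1.85 under this correction. Over all genes the correction changed the balance of the calls, of which 64.1% were lower before and 31.1% after.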

How the data were processed

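RNA from 6 E8.5 embryos (3 WT, 3 Dnmt3b-/-) was analysed, and 21 methylation samples of the series were not analysed here. The authors aligned read pairs of 75 bases to mm10 with TopHat2 2.0.12 and assigned them to RefSeq exons with HTSeq 0.6.0, and they deposited the raw counts. Strand setting and RefSeq release are not given in the sources used here. A second deposited set of columns is a normalized signal, the count divided by a DESeq2 1.4.5 size factor, of which 100.0% gave whole reads when multiplied back (tolerance 0.05), so that a test on them would repeat that on the counts. The deposited log2 fold change and adjusted p-value are the authors' own DESeq2 comparison and were not used.

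Counts were scaled with TMM and tested with edgeR 4.0.16 (R 4.3.3) with genotype as the one term, keeping the 15114 genes whose mean reached 10 counts. A standard error is the log2 fold change divided by the square root of F. Depth was 41489332 to 58470286 counts, and a floor of 3 counts covers counting error only, since reads carry no molecular identifiers. Alternatives were DESeq2 1.42.0, limma 3.58.1 on log2(CPM + 1), other filters, scalings and thresholds, a replicate block, an Xist covariate, a GC and length correction (natural splines with 5 degrees of freedom) and each embryo left out. The edgeR fit with and without the replicate block, the limma fit and the DESeq2 fit were tested on simulated data. The other alternatives were not. Positions, exons and sequences came from RefSeq on GRCm38.p6, in which 22608 genes matched by symbol and 1277 by an older symbol. Tables were made with Python 3.11.15.

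The members and lists were chosen with earlier results of these data known. Named were all members, Dnmt3b, called genes and the 2 most abundant genes of each list, called genes within 500 kb, and the 5 genes most like the Xlr3 and the Xlr4 sum. Dppa3, Ifitm3, Pou5f1, Ascl2, F8a, Zfp36l3, Cxx1b, Cxx1c, Cetn2, Nsdhl, Idh3g and the promoter sequence CCAATCAG were picked with their values in view. The partners of SYCP3 were all named, Syce2, Rec8, Syce3 and Rad21l after their values were known. The search for a run shared by the windows of Xlr and Xlr3a was not planned.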

Additional observations from a re-analysis of the deposited data

How the results depend on the processing

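Xlr, Xlr3a, Xlr3b, Xlr3c, Xlr4a and Xlr4b were called higher in 17 of 17 alternative fits. Xlr4c was called in 15 of the 16 in which it was tested, and lost the call with limma (0.75 on the log2 scale) and at an adjusted p below 0.01 (2.42). Xlr5a was called with DESeq2 (1.20) and at a mean of 50 counts (1.18). With 1 embryo left out, log2 fold changes were 2.18 to 2.57 for Xlr, 1.64 to 2.56 for Xlr3a, 1.58 to 1.88 for Xlr3b, 3.81 to 4.47 for Xlr3c, 2.41 to 3.38 for Xlr4a, 2.16 to 3.11 for Xlr4b, 2.04 to 2.89 for Xlr4c, 0.73 to 1.41 for Xlr5a and 0.22 to 0.93 for Xlr5b, and 7 members were called each time. The upper ends for Xlr3a, Xlr4a and Xlr4b were those without WT embryo 2, as was that of the Xlr4 sum (2.30 to 3.24). Limma gave smaller changes for Xlr (1.60) and Xlr3c (1.60), whose levels are low against its pseudocount of 1 CPM. Within sex, Xlr4c stood at 1.36 in embryos with Y-linked reads and 3.47 with Xist, and Xlr5b at -0.27 in those with Y-linked reads. The within-sex values and the DESeq2 fit with Xist were chosen after seeing the data.

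Differences in share, Dnmt3b-/- minus WT in percentage points, changed sign when 1 embryo was left out for Xlr3a (-2.47 to 10.6), Xlr4a (-1.23 to 11.4), Xlr4b (-8.71 to 1.9) and Xlr4c (-2.7 to 0.203), while Xlr3c stayed at 4.23 to 6.15. The cause was not tested.

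The replicate numbers did not pair the embryos (correlations of the deviations between same-numbered embryos were -0.05, -0.15 and -0.01). A fit with the number as a block called the same 7 members, with log2 fold changes of 1.72 (Xlr3b) to 4.14 (Xlr3c), and 265 genes higher and 516 lower over all genes.

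Over all genes 320 were called higher and 571 lower. With limma these were 177 and 280, at an adjusted p alone 2654 and 2741, at an adjusted p below 0.01 208 and 366, and with 1 embryo left out 242 to 381 and 391 to 775. The GC and length correction left 137 lower, and 118 with the block. Total-count scaling gave 246 and 710, so that 74.3% of the calls were lower. Depth limits Xlr3c and Xlr4c in WT embryos. For Xlr5c, depth and the assignment of shared reads cannot be told apart.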

Other observations

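Outside the 4 subfamilies by symbol, 2 further genes carry Xlr names among their RefSeq synonyms, and they were looked up after the values of the family were known. 3830403N18Rik (synonym Xlrl) had 52.9, 85.8 and 22.1 normalized counts in WT embryos 1, 2 and 3 and 502, 429 and 679 in Dnmt3b-/- embryos 1, 2 and 3. Its mean rose from 53.6 ± 31.9 to 537 ± 128 (SD, n = 3), with a log2 fold change of 3.34 ± 0.43 (SE; adjusted p = 0.0012, edgeR). 1700013H16Rik (synonyms Slx2 and Xlr6) had 45.0, 204 and 60.9 against 70.9, 107 and 162, and the groups overlapped (log2 fold change 0.14 ± 0.57 SE, adjusted p = 0.867). WT embryo 2 was the highest WT embryo for both genes. The promoter window of 3830403N18Rik is the third that holds the 15 bases shared by the windows of Xlr and Xlr3a. Xlr and Xlr3a hold these bases by the way the run was chosen, and a link of the run to the level of any gene was not tested. The windows of Xlr3b, Xlr3c and the Xlr4 copies, also called higher, do not hold them as an exact match. At the matching place Xlr3c has agtgCGcatgtgcaa and Xlr3b has agtgCGCGtgtgcaa (CpGs in capitals), close to the run but not the same.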
